A study of Citrus x aurantiifolia with 4 samples.

Results

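In 56 read clusters of an acid lime leaf transcriptome, a gene had at least 20 times the value in the transgenic libraries that it had in the wild-type libraries, while another gene of the same read cluster showed the opposite. These reciprocal genes number 128 of the 81380 assembled genes. A gene was counted as a T gene if its lower value in transgenic leaves was at least 5 and its higher value in wild-type leaves was at most 1/20 of that. A W gene met the mirror condition, with a wild-type value of at least 5 and transgenic values of at most 1/20 of it. All 66 T genes and 62 W genes in read clusters that hold at least 1 of each were taken, and these clusters are called swap read clusters. They make up 0.113% of 49627 read clusters, and they hold 10.5% of the 629 T genes and 9.39% of the 660 W genes of the assembly.

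The transgenic group (TG) consists of 2 leaf libraries from PCR-positive plants of the acid lime (Citrus x aurantiifolia) cultivar Pramalini, in which a trypsin inhibitor from Putranjiva roxburghii is overexpressed, and the wild-type group (WT) of 2 leaf libraries of the same cultivar. The promoter of the introduced gene, the number of transformation events and whether the libraries came from separate plants are not given in the sources used here, so a p-value here weighs genotypes against the spread of libraries that may be technical repeats. Anything else that the libraries of a genotype share cannot be told apart from genotype. The read totals were 17694540 and 16062327 in TG and 13510175 and 17357250 in WT. Values are given as TMM-scaled TPM, the authors' TPM (an abundance corrected for length and depth) times a TMM scaling factor. Read depth is lost in this unit, so the reads behind them were taken from the authors' isoform counts. In bulk leaf RNA, fewer cells of a type and less RNA per cell cannot be told apart.

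A de novo assembler builds transcripts from overlapping reads without a genome. The assembler used here, Trinity, first gathers reads that share sequence into a read cluster, splits it into components, and splits these into genes and isoforms. A gene in this sense is a group of assembled sequences. It can be a whole gene, a fragment, an allele or a member of a gene family. Acid lime is an interspecific hybrid of citron and Citrus micrantha, so that the parental copies of its genes can differ in sequence. Trypsin inhibitors, the class of the introduced protein, block serine proteases and are known in plants for defence against insects. No file gives names for the assembled genes. By ID alone, 0 assembled genes, and so 0 of the 128 members, matched an entry of the key lime gene table Mxlime_USDA_v1. No sequences were compared, so this says nothing about counterparts of the members in key lime. What the members encode, and whether the leaf label fits its marker genes, was therefore not analysed here.

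Which genes carried the swap, and how far, is shown best by the members in every library. The T genes had a median TMM-scaled TPM of 19.5 in their own genotype (mean of the TG libraries, range 6.40 to 942). The W genes had a median of 15.4 (mean of the WT libraries, range 5.36 to 7274). In the other genotype, 48 of 66 T genes (72.7%) and 42 of 62 W genes (67.7%) were listed at 0 in both libraries. Only 2 T genes and 7 W genes reached an own mean of 100 or more, whereas 20 T genes and 16 W genes stayed under 10. These levels chose the members and are a description, with no test. Together the members made up 0.235% and 0.309% of the summed value in TG 1 and TG 2, and 0.897% and 1.77% in WT 1 and WT 2.

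**Figure D1:**
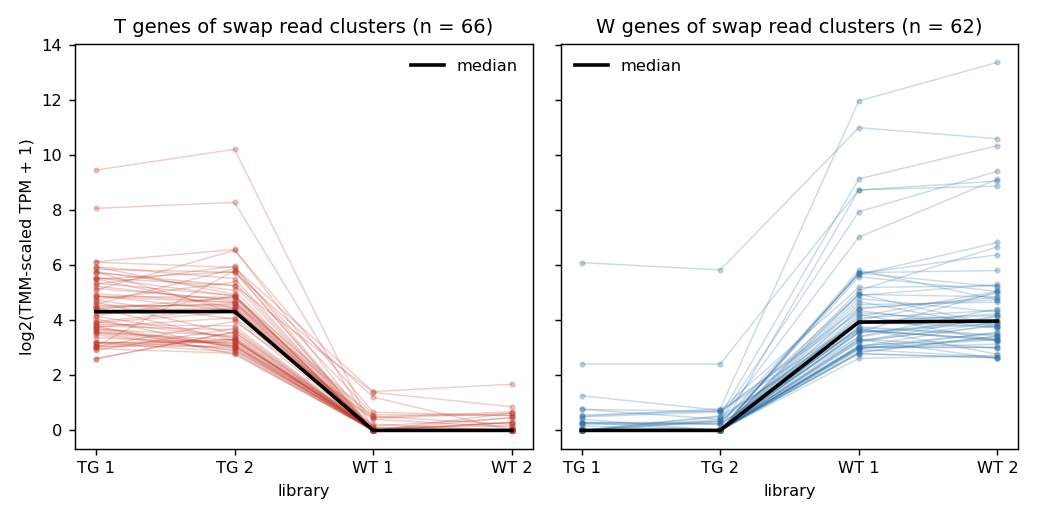
Values of the 66 T genes (left) and 62 W genes (right) of the swap read clusters in the TG and WT libraries, as log2(TMM-scaled TPM + 1), with 1 line per gene and the median in black. The median gene of each kind is at 0 in both libraries of the other genotype, and 7 W genes but only 2 T genes have an own mean of 100 or more.

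The limit is a cut through nearby values, as the genes closest to it show. The T member nearest to it had 7.25 and 7.40 TMM-scaled TPM in TG and 0.118 and 0.36 in WT, a 20.2-fold gap between the lower own and the higher other value. The nearest W member had 0.70 and 0.61 in TG and 14.5 and 17.7 in WT, a 20.7-fold gap. By reads its gap was smaller, with 19 and 17 reads in TG and 115 and 304 in WT. Just outside lay a W-like gene with 0.23 and 0.256 in TG and 5.05 and 6.60 in WT (19.7-fold) and a T-like gene with 13.7 and 9.65 in TG and 0 and 0.52 in WT (18.6-fold).

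Most swaps were a plain pair. In 45 of the 56 swap read clusters there was 1 T gene and 1 W gene, 8 clusters held several T genes and 4 several W genes, among them 1 with several of both kinds. The T and W gene lay in the same component in 27 clusters and only in different components in 29. Swap read clusters were large, with a median of 7 genes (range 2 to 18) against 3 for the 9872 read clusters that had at least 2 genes and a sum of at least 5 in both libraries of a genotype. The rule needs a gene of each kind, so larger clusters have more chances to meet it. Among such clusters of 2 to 3 genes 0.0926% swapped (5 of 5401), among those of 4 to 6 genes 0.600% (20 of 3331), of 7 to 9 genes 2.09% (18 of 861), and of 10 to 40 genes 4.66% (13 of 279). Beside the members, these clusters held 285 other genes. A gene other than a member with a value of at least 5 in every library was present in 38 of the 56 clusters.

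The strongest reciprocal pair belonged to TRINITY_DN16680, a read cluster of 11 genes. Its T gene, TRINITY_DN16680_c3_g4, had 700.1 and 1183 TMM-scaled TPM in TG and 0 and 0 in WT, from 1878 and 4484 reads in TG. Its main W gene, TRINITY_DN16680_c2_g2, had 0 and 0.443 in TG and 561 and 1295 in WT, from 2145 and 6388 reads in WT. The TG mean of the T gene was 942 ± 342 and the WT mean of the W gene 928 ± 519 (SD, n = 2 each), so these means differed by less than the spread between libraries. The second W gene was much weaker, at 0 and 0 in TG and 6.97 and 8.79 in WT. Most of the signal of the cluster in WT came from a pair of genes outside the rule, with 68.4 and 132 in TG against 1981 and 1260 in WT for the first and 48.7 and 84.8 in TG against 1536 and 1153 in WT for the second. The cluster sum was lower, at 833 and 1440 in TG against 4395 and 4336 in WT, and the libraries of the genotypes did not overlap. The sum was not called (log2 change -1.99, SE 0.45, limma adjusted p = 0.055). It was called on summed isoform counts, at a log2 change of -1.82 (edgeR adjusted p = 0.0416), and over 14 alternatives the adjusted p ranged from 0.00022 to 0.308.

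**Figure D2:**
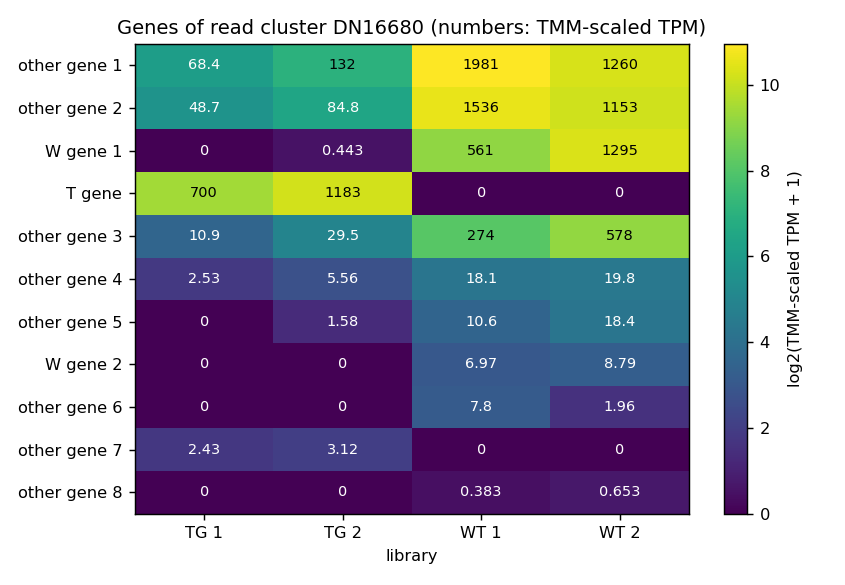
All 11 genes of read cluster TRINITY_DN16680 in the TG and WT libraries, coloured by log2(TMM-scaled TPM + 1) and with the TMM-scaled TPM written in each cell. The T gene is filled only in TG and the main W gene almost only in WT, while the 2 genes with the highest values, which are no members, are at 48.7 to 132 in TG against 1153 to 1981 in WT.

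Of the 8 clusters with the strongest pairs, TRINITY_DN20670 and TRINITY_DN29108 were those whose highest T and W gene differed by more than 2-fold. TRINITY_DN20670_c2_g1, the most abundant member, had 0.427 and 0.718 TMM-scaled TPM in TG and 4003 and 10545 in WT, and the WT libraries themselves differed by more than 2-fold. The T gene of its cluster had 33.2 and 92.2 in TG and 0.579 and 0.454 in WT. The isoform table used here lists this T gene at 0 and 0 reads in TG and 1 and 1 in WT. The reads behind its values were therefore not analysed here. The sum of this cluster was 59.2 and 139.9 in TG and 4037 and 10585 in WT (log2 change -6.15, SE 0.67, limma adjusted p = 0.0185), and the other genes of the cluster summed to 25.6 and 46.9 in TG and 33.4 and 39.3 in WT, which overlap. In TRINITY_DN29108 the stronger member was the T gene TRINITY_DN29108_c5_g1, with 267 and 309.9 in TG and 0 and 0 in WT. A second T gene of the cluster had 30.2 and 24.0 in TG, and the W gene had 0 and 0 in TG against 32.8 and 101 in WT, from 6 and 23 reads in WT. The sums were 344 and 361 in TG and 159 and 319.7 in WT and were not called (log2 change 0.64, SE 0.38, limma adjusted p = 0.309).

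In 3 clusters the T and W gene were the only genes. TRINITY_DN11304 consists of 2 genes of a single component. The T gene had 60.2 and 29.6 TMM-scaled TPM in TG (42 and 34 reads) and 0 in both WT libraries, and the W gene had 0 in both TG libraries and 55.5 and 25.8 in WT (70 and 41 reads). The cluster sums are these same values, they overlapped, and they were not called (log2 change 0.15, SE 0.52, limma adjusted p = 0.893). TRINITY_DN12588 is built alike, with a T gene at 25.8 and 41.0 in TG and a W gene at 50.9 and 82.2 in WT, each at 0 in the other genotype. Its sums did not overlap and were lower in TG without being called (log2 change -0.97, SE 0.35, limma adjusted p = 0.13). The third, TRINITY_DN14154, named as the remaining cluster of this size, was far from equal, with a T gene at 24.3 and 10.3 in TG and a W gene at 423 and 531 in WT, each at 0 in the other genotype. Its sum was called lower in TG (log2 change -4.81, SE 0.43, limma adjusted p = 0.0151).

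TRINITY_DN28828, with 18 genes, had the most members. Its 3 T genes had 51.9 and 37.2, 28.7 and 19.2, and 11.7 and 9.88 TMM-scaled TPM in TG, and at most 0.218 in WT. Its 4 W genes were at 0 in both TG libraries and had 52.0 and 55.0, 29.0 and 38.4, 24.5 and 12.5, and 9.49 and 16.9 in WT. The T genes made up 58.4% of the cluster sum in TG and the W genes 68.0% of it in WT. The sums were 146 and 126 in TG and 160.1 and 189.8 in WT, a difference that was not called (log2 change -0.36, SE 0.19, limma adjusted p = 0.259). In TRINITY_DN27410 a gene outside the rule was the largest of the cluster, with 201 and 165 in TG and 91.9 and 80.7 in WT. The T gene had 45.4 and 37.3 in TG and 1.60 and 0.814 in WT, and the main W gene had 0.197 and 0.177 in TG and 49.4 and 112 in WT. The sums of 259.6 and 208 in TG and 154 and 209.6 in WT overlapped (log2 change 0.37, SE 0.25, limma adjusted p = 0.362).

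**Figure D3:**
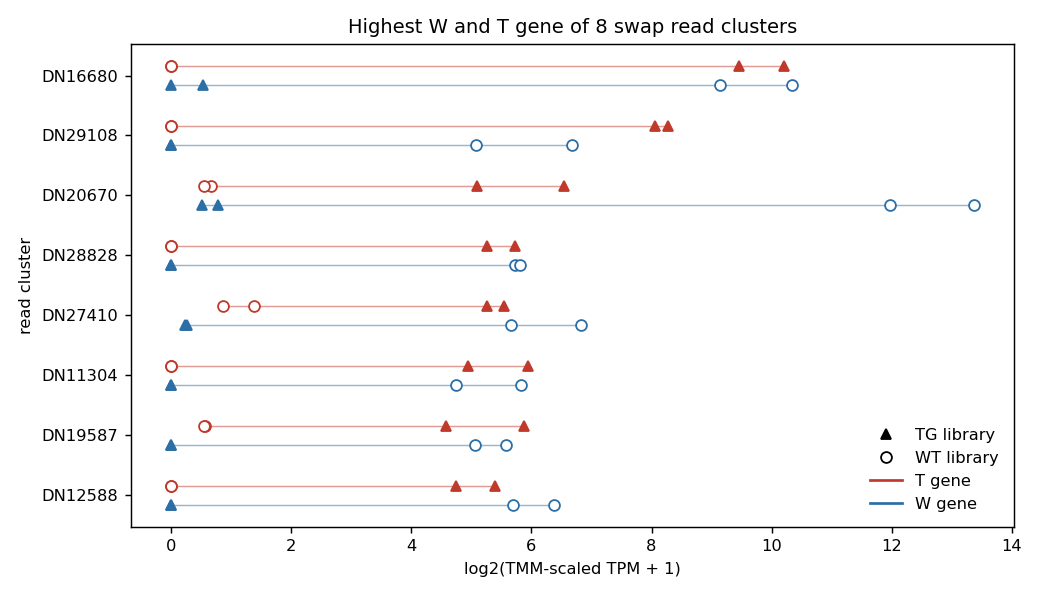
The highest T gene (red) and W gene (blue) of the 8 swap read clusters whose weaker gene of the pair was most abundant, as log2(TMM-scaled TPM + 1). Filled triangles are TG libraries and open circles WT libraries. In each of the 8 clusters the triangles of the T gene lie right of its circles and those of the W gene lie left of its circles, as the rule requires, and the W gene of DN20670 stands far above its T gene.

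TRINITY_DN19587 had 2 T genes, of which the first had 44.1 and 20.6 TMM-scaled TPM in TG 1 and TG 2 and the second 23.0 and 57.6. Their sum was nearly level, at 67.1 and 78.2. The W gene had 46.8 and 32.2 in WT, from only 14.9 and 12.8 reads, while the T genes held 1218 and 588 reads (first) and 557 and 1477 reads (second) in TG. By value the cluster sums were 67.4 and 79.5 in TG and 49.2 and 35.6 in WT (log2 change 0.79, SE 0.23, limma adjusted p = 0.0825). Summed reads, which are not corrected for length, had an edgeR log2 change of 5.20 (adjusted p = 0.00175). Over 14 alternatives the adjusted p ranged from 2.04e-62 to 0.396. A swap between sequences of unlike length changes the read sum even at equal values. How much of the change by reads is length was not tested.

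Members often differed between libraries of their own genotype, which is given without a test. The own libraries lay more than 2-fold apart for 19.7% of the T genes and 21.0% of the W genes, against 9.73% of the 18075 genes that reached 5 in both TG libraries and 5.65% of the 18660 that reached 5 in both WT libraries. T and W genes of read clusters without the opposite kind had shares of 15.1% (of 563) and 20.9% (of 598). Among the W members, 9 were over 2-fold higher in WT 2 and 4 in WT 1, and among the T members, 6 were over 2-fold higher in TG 2 and 7 in TG 1. The widest gap belonged to a T gene with 7.29 and 54.8 TMM-scaled TPM in TG 1 and TG 2.

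The number of isoforms is a measure that the rule did not use. Of the T members 45.5% and of the W members 58.1% had a single isoform, against 15.1% and 15.7% of all genes that reached 5 in both TG or both WT libraries. Among T and W genes of clusters without the opposite kind it was 50.4% and 47.2%. The number of reads per unit of value, divided by its median over the genes of a library, gives a relative length. Its divisor is the value on which the rule rests, so it is a description only. For genes with at least 20 reads in both own libraries, its median was 0.266 in 42 T members and 0.242 in 38 W members, against 0.99 and 0.978 in all genes at that value in TG and WT. T and W genes of clusters without the opposite kind lay between, at 0.445 (344 genes) and 0.552 (413 genes). In 20 of the 56 swap read clusters, the highest T and W gene both had at least 20 reads in both own libraries. Their relative lengths were within 2-fold in 10 of these 20 pairs, with the T gene the longer one in 9. The remaining pairs, which hold a gene with fewer reads listed, could not be compared, so these counts do not speak for them.

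A sequence of low relative length has a high value from few reads, so the reads set how firm a swap is. In the own genotype at least 20 reads in both libraries were found for 42 of 66 T members and 38 of 62 W members. Under 10 reads in an own library lay behind 12 T members and 17 W members, leaving out the T gene of TRINITY_DN20670. At least 20 reads in both own libraries together with 0 reads in both libraries of the other genotype were found for 26 T members and 18 W members. The gap by value was not always a gap by reads. With reads divided by the read total, the lower own library was under 20-fold above the higher other library in 5 of 65 T members and 4 of 62 W members with reads in the table. A member with 0 reads in both other libraries could not be counted here, however few its own reads. By value, 48 of 66 T and 42 of 62 W members were at 0 in both other libraries. The counts therefore do not show that the remaining members keep a 20-fold gap by reads. The W genes of TRINITY_DN22981 and TRINITY_DN13809, singled out after their values were seen, were the only members counted under 4-fold. The first had 67.3 and 55.8 TMM-scaled TPM in TG and 2038 and 1542 in WT, but 573 and 580 reads in TG and 869 and 815 in WT, a gap of 1.30-fold by scaled reads. The second had 4.30 and 4.31 in TG and 425 and 467 in WT, but 72 and 76 reads in TG and 145 and 171 in WT, a gap of 2.08-fold. What sets value and reads apart in these genes was not tested. A library listed at 0 reads may hold up to 3 by counting error alone. When the rule was set on reads (at least 20 in both own libraries, and reads scaled to the library total at most 1/20 of it in the other genotype), 133 genes of 54 read clusters met it, and only 43 of these genes and 20 of these clusters were also among the members and clusters described here.

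Levels of T genes in TG and of W genes in WT are set side by side as a description, since both chose the members. The summed T genes in TG and the summed W genes in WT were within 2-fold of each other in 29 of 56 clusters, within 4-fold in 39 and within 8-fold in 49. The T side was higher in 29 clusters and the W side in 27, with a median log2 ratio of 0.01 and quartiles at -0.96 and 1.20. Across the 56 clusters log2 levels had a Pearson's r of 0.28 and a Spearman's rho of 0.14, with no test, since the same 4 libraries and the same lower limit of value stand behind all points. Swaps within a single component were about as well matched (15 of 27 within 2-fold) as swaps across components (14 of 29).

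Summed over all genes of a read cluster, the genotypes came much closer than the members. The sums of TG and WT means differed by less than 2-fold in 37 of 56 swap read clusters (66.1%). The median absolute log2 ratio of the sums was 0.61, and the median log2 ratio was -0.07 with quartiles at -0.96 and 0.37. The share within 2-fold was 50.2% in the 408 read clusters with T genes but no W gene and 50.2% in the 422 with W genes but no T gene, among clusters with at least 2 genes, and 78.0% in all 9872 clusters of that size with a sum of at least 5. These sets also differ in size, with a median of 7 genes in swap read clusters, 5 in those with a single kind and 3 in all 9872. As the members of opposite kinds offset each other in a sum by the way they were chosen, these shares are a description. On isoform counts scaled to the library total, 30 of the 56 clusters differed by less than 2-fold, and 46 of 56 had the same direction as by value. Counts, unlike the values, are not corrected for length.

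**Figure D4:**
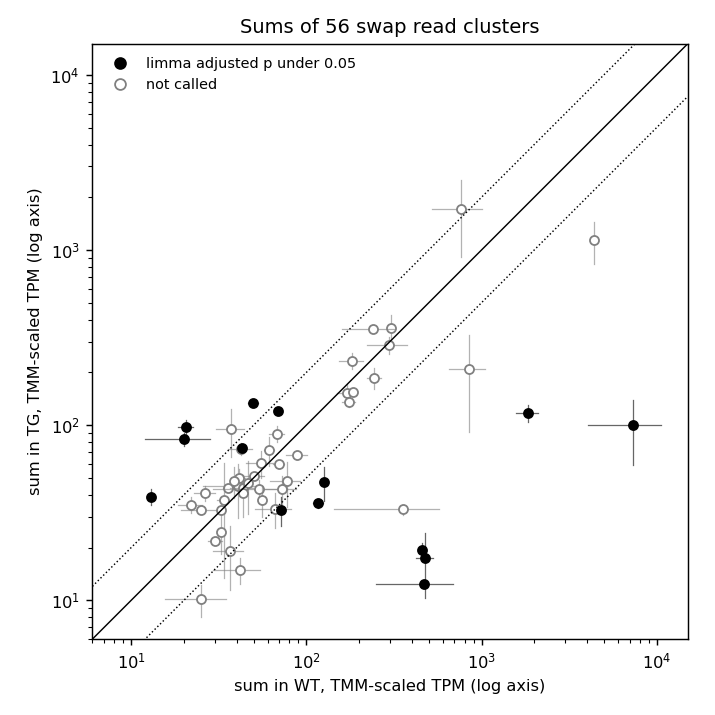
Sum over all genes of each of the 56 swap read clusters in TG (vertical) against WT (horizontal), in TMM-scaled TPM on log axes. Points are means and bars run between the 2 libraries of a genotype; the solid line marks equal sums and the dotted lines 2-fold differences, within which 37 clusters lie. The 14 filled points are called by limma, 6 higher and 8 lower in TG.

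In the limma fit over all 19184 read cluster sums, 15.3% were called at an adjusted p under 0.05 (7.47% higher and 7.81% lower in TG). Of the 56 swap read cluster sums 14 (25%) were called, 6 higher and 8 lower in TG. The rule used the same values and the same contrast, so nothing is read from this share. It also depended on the libraries and the scaling. With TG 1, TG 2, WT 1 or WT 2 left out, 0 swap read cluster sums passed the adjusted limma threshold, and 16, 20, 16 and 15 had an unadjusted p under 0.05. With the filter on low values redone on the remaining libraries, 12, 8, 7 and 8 were called, and edgeR on summed isoform counts called 22 with all libraries. With each library rescaled to the same total, 3 were higher and 8 lower. The libraries of the genotypes did not overlap for 39 of the 56 sums, 15 higher and 24 lower in TG, against 65.4% of the 9872 comparison clusters (33.5% higher and 31.9% lower).

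The lowest ratios of sums belonged to clusters whose W genes had no T gene of like level. Of the 13 clusters whose sums were at least 2-fold lower in TG, 7 had T genes at least 2-fold below the W genes they stood against, and in 6 clusters the W genes held over 95% of the WT sum. Besides TRINITY_DN20670 this was plain in TRINITY_DN17155, where the T gene had 8.10 and 8.23 TMM-scaled TPM in TG and 0.167 and 0 in WT. The W gene had 0.70 and 0.325 in TG and 245 and 680.0 in WT. The reads of the T gene were 39.9 and 74.1 in TG and 5 and 0 in WT, a smaller gap to WT 1 than by value. The sums of this cluster were 12.1 and 12.5 in TG and 249 and 688 in WT (log2 change -4.96, SE 0.52, limma adjusted p = 0.0171). TRINITY_DN22981 and TRINITY_DN13809, also among the 7, had limma log2 changes of -3.96 and -4.48 by value. By reads their genotypes lay much closer. The first cluster had 737 and 767 reads in TG and 1072 and 998 in WT. The second had 81.3 and 90.3 reads in TG and 156 and 182 in WT. The other 6 of the 13 clusters had T and W genes within 2-fold of each other, among them TRINITY_DN16680. A sum that is 2-fold lower beside such members leaves the other genes lower by subtraction, so their fall is no separate result.

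All 6 clusters whose sums were at least 2-fold higher in TG had T genes at least 2-fold above their W genes. In 4 of them the other genes of the cluster stayed within 2-fold. TRINITY_DN18684 had the highest ratio. Its T gene had 68.7 and 94.1 TMM-scaled TPM in TG, from 2270 and 3146 reads, and 0 in both WT libraries. Its W gene had 0.70 and 0.61 in TG and 14.5 and 17.7 in WT. The reads of this W gene were 19 and 17 in TG and 115 and 304 in WT, a smaller gap than by value. The sums were 88.1 and 107 in TG and 18.5 and 22.6 in WT (log2 change 2.19, SE 0.20, limma adjusted p = 0.0151). TRINITY_DN28977 followed, with 3 T genes, the highest at 56.7 and 52.5 in TG, and a W gene at 0 in TG and 8.18 and 14.4 in WT, from 5 and 11 reads. Its sums were 90.4 and 76.4 in TG and 12.0 and 28.0 in WT (log2 change 2.11, SE 0.43, limma adjusted p = 0.0452). This call was lost with each library rescaled to the same total (limma adjusted p = 0.0523), and over 14 alternatives the adjusted p ranged from 3.36e-12 to 0.258. With a library left out and the filter kept from all libraries, the limma adjusted p of the called sums of TRINITY_DN20670, TRINITY_DN17155, TRINITY_DN18684 and TRINITY_DN28977 was between 0.107 and 0.258. With the filter redone, it was between 0.0121 and 0.047 for the sums of TRINITY_DN20670, TRINITY_DN17155 and TRINITY_DN18684, and between 0.0302 and 0.102 for that of TRINITY_DN28977, which was called only without WT 2.

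**Figure D5:**
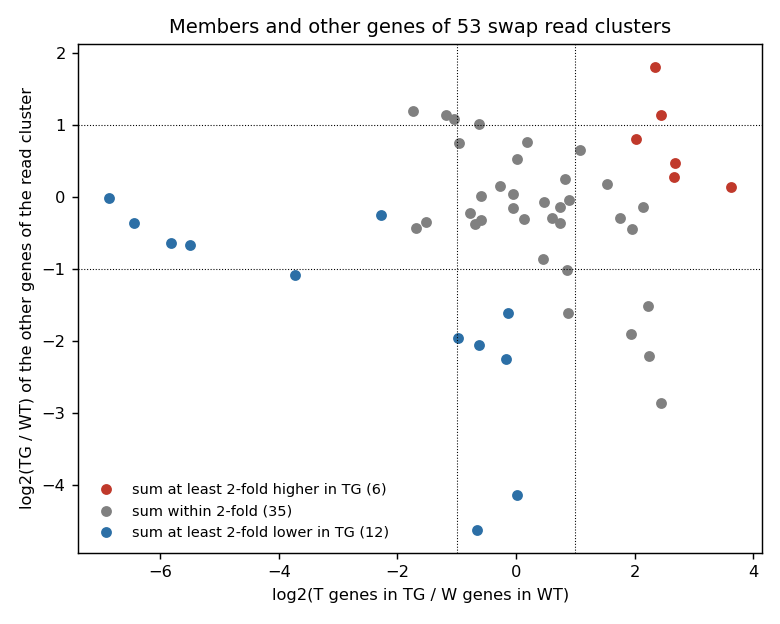
For the 53 swap read clusters with values in other genes, the log2 ratio of the summed T genes in TG to the summed W genes in WT (horizontal) and the log2 TG over WT ratio of the other genes (vertical), coloured by the ratio of the whole sums. Dotted lines mark 2-fold. The ratio of the whole sums is made of the quantities on both axes, so the place of the 6 clusters with higher sums on the right, and of clusters with lower sums on the left or at the bottom, follows largely from the arithmetic.

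The sums nearest to equal hid large reciprocal differences and, in part, few reads. In TRINITY_DN17143 the T gene had 13.4 and 12.9 TMM-scaled TPM in TG and the W gene 14.4 and 17.1 in WT, each at 0 in the other genotype. The sums of 41.8 and 46.1 in TG and 36.7 and 49.9 in WT overlapped (log2 change 0.03, SE 0.21, limma adjusted p = 0.946). By reads the T gene weighed more, with 363 and 336 reads in TG against 45 and 67 reads of the W gene in WT. Its relative length was 1.47, against 0.196 for the W gene. The read sum of the cluster was higher in TG (edgeR log2 change 1.65, adjusted p = 0.00789, over 14 alternatives 8.99e-07 to 0.962). Reads are not corrected for length, so this does not show a higher abundance in TG. In TRINITY_DN25894 a gene with 5.54 and 10.7 in TG and 2.93 and 2.39 in WT had no reads listed. It enters the sums by value but not those by reads. By value the sums of this cluster were 31.1 and 62.6 in TG and 48.5 and 44.8 in WT (log2 change -0.08, SE 0.37, limma adjusted p = 0.928). Its T gene rested on 1 and 3 reads in TG and its W gene on 4 and 4.32 reads in WT, and by reads the cluster was lower in TG (edgeR log2 change -1.40, adjusted p = 0.0377, over 14 alternatives 0.00435 to 0.986).

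The other genes of the swap read clusters were tested in 181 of 285 cases. In the limma fit of all 34378 genes, 26.2% were called (12.4% higher and 13.8% lower in TG). This balance was lost in fits with a library left out. With the filter on low values kept from all libraries, leaving out either TG library gave mostly calls higher in TG. Leaving out either WT library gave mostly calls lower in TG. With the filter redone, each of these skews turned round. Such fits leave a lone library in a genotype, so no direction is read from them. Of these 181 genes, 31 were called higher and 39 lower in TG, together 38.7%, with a median log2 change of -0.36, against 0.02 over all genes. They lie in clusters chosen on the same contrast, so this share too is a description. All 66 T and 62 W members were called in their own direction, which the rule fixes. As a sum per cluster, the other genes were within 2-fold between genotypes in 34 of 53 clusters. In 16 of the 56 clusters the members held at least 50% of the sum in both genotypes, and in 7 of these the sums differed by less than 2-fold. In 21 clusters the members held under 50% in both genotypes, and in 17 of these the sums differed by less than 2-fold.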

How the data were processed

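RNA of 2 TG and 2 WT leaf libraries was measured by sequencing, and groups were taken from the sample titles. Bowtie2, RSEM and DESeq2 are named, with no version, in the submitters' processing notes, and the IDs are those of a Trinity assembly. Its settings, a genome build and the use of strand are not given in the sources used here. Whatever these were, genes that share sequence may share reads. The authors deposited TMM-scaled TPM signal for 81380 genes, used for the rule, the sums and the limma fits. The isoform table holds expected counts, per the file headers, for 184761 isoforms (97.6% to 97.9% of the read totals), summed per gene or read cluster and rounded for count tests. This table and the other 2 end inside a row, which was left out. The deposited gene table named as counts is proportional to the gene signal and served only for the read totals.

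Read cluster sums and genes were tested on the log2(value + 1) scale with limma-trend (R 4.3.3, limma 3.58.1), for features that reached a value of 1 in 2 or more libraries, Benjamini-Hochberg adjustment over all features and adjusted p under 0.05, two-sided. A log2 change on that scale understates the change of low values. Alternatives used edgeR 4.0.16, DESeq2 1.42.0, other limits of the rule, other scaling, a pseudocount of 0.1 and left-out libraries. The tests were also run on simulated data with known changes and independent noise for each gene or read cluster. Sharing of reads between genes was not simulated, so those runs do not bear on it. An exact permutation test of 2 against 2 libraries cannot go below p = 0.333, so none was used. The members and lists were chosen with earlier results of these data known. Named clusters are the 8 whose weaker gene of the top pair was highest, the 2 with the most members, and the 2 each with the highest, the lowest and the most equal ratio of sums. The limit of 300 members was not reached.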

Additional observations from a re-analysis of the deposited data

How the results depend on the processing

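Of 258 alternative values, 139 changes of named sums kept their direction and their side of the threshold, 21 lost and 9 gained their call, 35 counts stayed within 1.5 times the reported count and 41 did not, and 13 changes of sums turned sign, all for sums that passed the threshold in neither fit. The log2 change of TRINITY_DN11304 was -0.61 with edgeR, -0.63 with DESeq2, and -0.38 to 0.69 with a library left out (below 0 without TG 1, at -0.35, and without WT 2). That of TRINITY_DN25894 was -0.57 to 0.42 with a library left out (above 0 without TG 1). That of TRINITY_DN17143 was -0.069 with each library rescaled to the same total and -0.18 to 0.25 with a library left out (below 0 without TG 2, at -0.034, and without WT 1). With the filter on low values redone, the values without a library were the same. Members, swap read clusters and clusters with sums within 2-fold numbered 345, 143 and 98 at a minimum value of 2, 47, 20 and 14 at a minimum of 10, and 58, 27 and 17 when T and W genes had to share a component. With a library left out, which loosens the rule, they numbered 176 to 221, 75 to 93 and 49 to 63, with the highest counts without TG 2. Genes called were 9018, and 1845 without the filter on low values. Read cluster sums called were 2932, and 483 without the filter and 4664 with DESeq2. Swap read cluster sums called were 14, and 7 without the filter, 22 with edgeR and 27 with DESeq2 on summed isoform counts. The cause was not tested for these. With the filter kept from all libraries, leaving out a library in limma gave 2340 to 2496 genes, and 0 sums and so 0 swap read cluster sums, while 4106 to 5622 sums had an unadjusted p under 0.05. With the filter redone, an alternative chosen after seeing the data, there were 1991, 2335, 926 and 629 genes (593, 696, 631 and 500 of them higher in TG), 1040, 1137, 524 and 346 sums, and 12, 8, 7 and 8 swap read cluster sums without TG 1, TG 2, WT 1 and WT 2. The lone library is then assumed to vary like those of the other genotype. The replicate number as a block gave 9626 genes, 3329 sums and 15 swap read cluster sums, and TRINITY_DN12588 was then called (adjusted p = 0.0353). What a replicate number stands for is not labelled, and deviations of same-numbered libraries had r = 0.105 over 34378 genes, which does not establish pairing from only 2 numbers. Depth limits single swaps where an own library holds under 10 reads (12 T and 17 W members with reads in the table).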
